A study of Mus musculus with 10 samples.

Results

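The cells described here are CD8 T cells of mouse livers with colorectal cancer metastases that carried transcripts of both Pdcd1, which encodes the inhibitory receptor PD-1, and Havcr2, which encodes the inhibitory receptor TIM-3. Among 28039 barcodes, 27707 passed limits of 300 or more genes and 15% or less of UMIs from mitochondrial genes. A T cell receptor beta contig marked productive, at least 2 UMIs of Cd8a and Cd8b1 together, and no UMI of Cd4 or of Foxp3 defined 2963 gated CD8 T cells. Of these, 896 had at least 1 UMI of Pdcd1 and at least 1 of Havcr2, and they are called Pdcd1+ Havcr2+ cells. The remaining gated cells were 834 with Pdcd1 alone (Pdcd1-only cells), 1119 with neither transcript (negative cells) and 114 with Havcr2 alone. The cells were thus chosen by their measured UMIs of Pdcd1, Havcr2, Cd8a, Cd8b1, Cd4 and Foxp3, so the levels of these 6 genes are description and support nothing.

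Livers were dissociated with enzymes and viable 7AAD-negative cells were sorted without any antibody, then profiled by droplet single-cell RNA sequencing with receptor sequencing of the same cells. The 3 groups were Control (livers 11 and 25), from mice given a control LV (lentiviral vector), IFNa (livers 18 and 23), from mice given the IFNa LV, and the combination, labelled IFNa + aCTLA4 (liver 22), in which IFNa was combined with an agent against CTLA-4. The series title speaks of engineering macrophages in vivo, and the labels name no promoter, dose or time. The labels do not give the age or strain, nor say whether the livers are those of separate mice. The p-values therefore rest at most on variation among these 5 livers, some of which may be technical. The main fits across genes that included Pdcd1+ Havcr2+ cells left out liver 25. Those that compared treatments took their spread from the IFNa livers alone.

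Persistent antigen drives CD8 T cells into a state termed exhaustion, in which inhibitory receptors such as PD-1, TIM-3 and LAG-3 and the transcription factor TOX are kept high. A precursor stage that retains the transcription factor TCF-1, the product of Tcf7, renews itself and gives rise to terminal cells that lose TCF-1 and gain TIM-3. In tumours the terminal cells keep granzymes, perforin and chemokines such as CCL3.

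The Pdcd1+ Havcr2+ cells numbered 46 in Control 11, 4 in Control 25, 34 in IFNa 18, 192 in IFNa 23 and 620 in the combination. Control 25 was a small library, with 863 barcodes against 5574 to 9605 in the others, and its 4 cells entered the fits across genes only as an alternative. Library totals ran from 10464216 to 69856071 UMIs, and summed UMIs of the Pdcd1+ Havcr2+ cells from 111592 in Control 25 to 8302015 in the combination. Libraries shared 4 to 81 kept barcodes a pair, at most 2.01% of the smaller library, and none of these barcodes was a Pdcd1+ Havcr2+ cell in both.

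A second lineage's transcripts were present in many of these barcodes. Summed UMIs of 45 genes of macrophages, dendritic cells, B cells, neutrophils and MHC class II (the other-lineage load) reached 10 or more in 256 of the 896 Pdcd1+ Havcr2+ cells (28.6%), in 108 of the Pdcd1-only cells (12.9%) and in 100 of the negative cells (8.94%). In the Pdcd1+ Havcr2+ cells the share was 45.7% in Control 11, 25% in Control 25, 35.3% in IFNa 18, 29.7% in IFNa 23 and 26.6% in the combination. Those 256 cells had a median of 20633 UMIs against 8134 in the other 640, and 204 of them had at least 100 other-lineage UMIs. The summed level of 14 macrophage and monocyte markers was 2365 to 6149 CPM (UMIs per 1000000 UMIs of the summed cells) over all Pdcd1+ Havcr2+ cells of a liver, with 0 to 2 of the 14 at 0. Among cells with a load under 10 it was 53.9 to 155 CPM, with 3 to 12 of the 14 at 0. This fall follows from the limit, since the load counts all 14 markers. The limit of 10 was chosen after the data were seen. Gene-level results are therefore given for all Pdcd1+ Havcr2+ cells and for the 640 low-load cells (25, 3, 22, 135 and 455 in the order of livers above). The 10 B cell markers summed to 8.73 to 142 CPM over all cells and 0 to 22.2 CPM in low-load cells, and the 10 dendritic cell markers, which include Bst2, to 439 to 1004 and 177 to 490 CPM. Whether these barcodes hold a T cell together with another cell was not tested. Nor was it tested whether the Havcr2 UMIs that admitted such a barcode came from the T cell. The background check below used B cells, and no macrophages or dendritic cells.

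**Figure D1:**
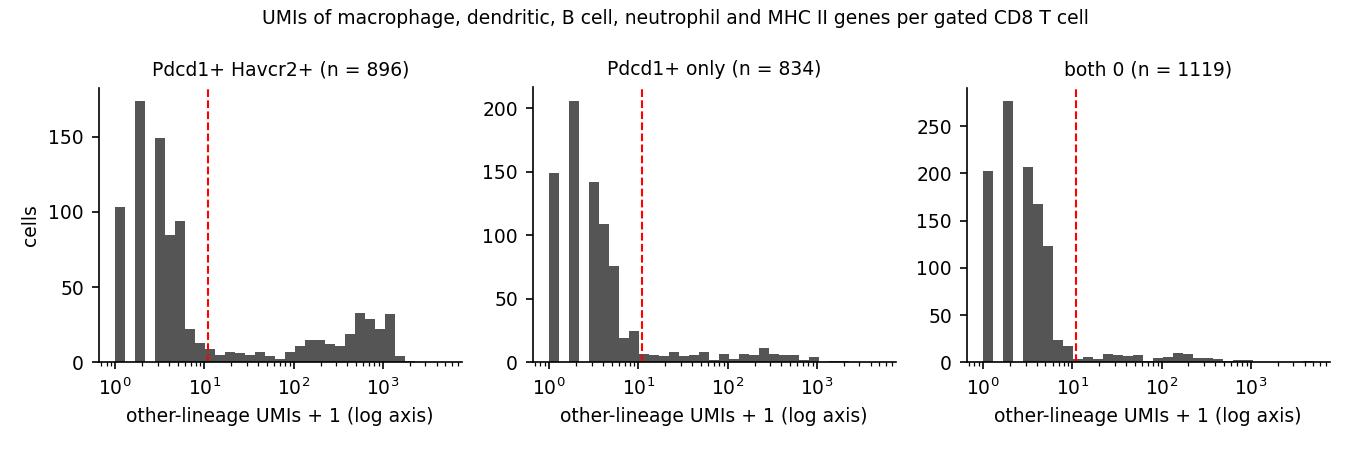
Number of cells (vertical axis) by other-lineage UMIs plus 1 (horizontal axis, log scale) for Pdcd1+ Havcr2+, Pdcd1-only and negative (both 0) gated CD8 T cells of all 5 livers. The dashed line marks 10 UMIs, and the Pdcd1+ Havcr2+ panel shows a separate right-hand group that includes the 204 cells with at least 100 other-lineage UMIs.

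The markers of exhausted CD8 T cells were detected in most of these cells. In the low-load cells of Control 11, IFNa 18, IFNa 23 and the combination, a Lag3 UMI was present in 88%, 90.9%, 97% and 93.6%, against 1.85%, 7.25%, 9.77% and 13.4% of low-load negative cells. Prf1, which encodes perforin, was detected in 92%, 81.8%, 79.3% and 77.8% of them, and Ccl3 in 72%, 59.1%, 82.2% and 53.4%. Tox was detected in 92%, 90.9%, 97.8% and 81.3%. Tcf7 was detected in 0 of 25, 1 of 22, 7 of 135 and 43 of 455 (0%, 4.55%, 5.19% and 9.45%) low-load Pdcd1+ Havcr2+ cells, in 35.1%, 23.3%, 36.9% and 52.0% of Pdcd1-only cells and in 90.1%, 90.3%, 87.2% and 80.9% of negative cells. In Control 25, 3 of 3 low-load cells had Lag3 and Tox and 0 of 3 had Tcf7. These detections are description. Part of the Havcr2 signal lies near background: 234 of the 896 cells had exactly 1 Havcr2 UMI, 80 had exactly 1 Pdcd1 UMI and 30 had 1 of each. Just outside the gate, 41 barcodes failed only for a Cd4 UMI, 72 only for a Foxp3 UMI and 1 only for a single Cd8 UMI. In B cells, which should lack both receptors for the most part, a Havcr2 UMI was found in 2.65% to 6.28% of cells and a Pdcd1 UMI in 0.215% to 0.888%, apart from 6.72% for Pdcd1 in the combination (median 3964 to 5412.5 UMIs per B cell).

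Pdcd1+ Havcr2+ cells made up 17.0% of gated CD8 T cells in Control 11 (46 of 270, exact 95% binomial interval 12.8 to 22.1) and 11.1% in Control 25 (4 of 36, 3.11 to 26.1). They made up 11% in IFNa 18 (34 of 309, 7.74 to 15), 38.2% in IFNa 23 (192 of 503, 33.9 to 42.6) and 33.6% in the combination (620 of 1845, 31.4 to 35.8). The IFNa livers thus lay on either side of both Control livers. Their means were 24.6% ± 19.2 (SD, n = 2) and 14.1% ± 4.19 (SD, n = 2), a difference of 10.5 percentage points with p = 1 in a two-sided exact permutation test, whose smallest possible p is 0.333. Without IFNa 23 the difference was -3.07 percentage points. The combination exceeded the Control mean by 19.5 percentage points, with 1 liver and no test. Intervals cover counting error only.

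The share depends on depth, since Pdcd1+ Havcr2+ cells had a median of 10475.5 UMIs against 6635.5 in Pdcd1-only and 7206 in negative cells. After each cell was thinned to 3000 UMIs, which left out 0 to 111 shallower gated cells a liver, the shares were 8.23%, 8.57%, 4.09%, 22.9% and 17.8% in the same order of livers. Among low-load cells they were 11%, 9.68%, 8.46%, 34.6% and 29.8%, and with both restrictions 8.78%, 10%, 3.51%, 22.4% and 17.5%. IFNa 23 and the combination remained the highest livers and IFNa 18 the lowest under each of these 3 counts. Of all kept barcodes, the cells were 0.822% in Control 11, 0.473% in Control 25, 0.548% in IFNa 18, 3.47% in IFNa 23 and 6.50% in the combination, a liver in which gated CD8 T cells were 19.3% of kept barcodes against 4.26% to 9.09% in the others.

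**Figure D2:**
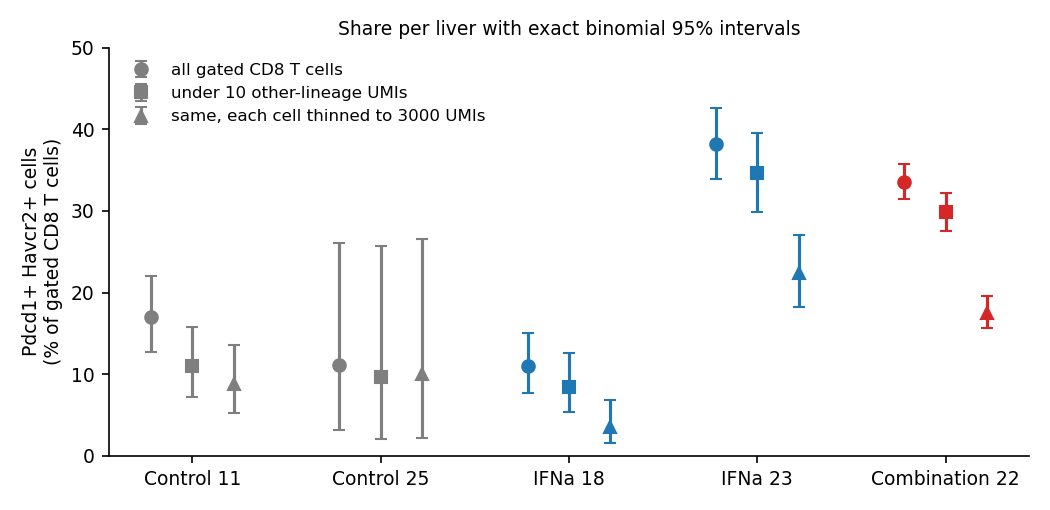
Pdcd1+ Havcr2+ cells as a percentage of gated CD8 T cells (vertical axis) in each of the 5 livers, counted in all cells (circles), in cells with under 10 other-lineage UMIs (squares) and in such cells thinned to 3000 UMIs (triangles), with exact 95% binomial intervals. IFNa 23 and the combination lie above the other 3 livers in every count, and IFNa 18 lies near or below the Control livers.

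Receptor sequences, which the gate used only as the presence of a beta contig, showed that these cells were clonally expanded. A clonotype was the same V and J segments and the same CDR3 bases for both chains, and it was called expanded when at least 2 gated CD8 T cells of the liver carried it. Among cells with both chains, 39 of 44 Pdcd1+ Havcr2+ cells belonged to expanded clonotypes in Control 11 (88.6%), 1 of 3 in Control 25 (33.3%), 26 of 33 in IFNa 18 (78.8%), 175 of 186 in IFNa 23 (94.1%) and 558 of 574 in the combination (97.2%). In negative cells the shares were 3.42%, 8.33%, 5.59%, 16.7% and 29.6%. The difference averaged 65.7 percentage points (SD 23.6, higher in 5 of 5 livers) with p = 0.0625 in a two-sided exact sign-flip permutation test, the smallest p that 5 livers allow. Pdcd1-only cells lay closer, at 60%, 25%, 82.9%, 78.4% and 84.5%. Their difference from the Pdcd1+ Havcr2+ cells averaged 12.3 percentage points (SD 11.9, higher in 4 of 5 livers, exact p = 0.125), and among low-load cells 18.1 points (SD 13.3, 5 of 5 livers, exact p = 0.0625). The tests of expansion cannot reach 0.05 with 5 livers. Expanded shares are not compared between livers, since a liver with more gated cells gives each clonotype more chances to be seen again.

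The 5 largest clonotypes held 81.8% of the Pdcd1+ Havcr2+ cells with both chains in Control 11, 69.7% in IFNa 18, 80.1% in IFNa 23 and 48.3% in the combination. The 44 Pdcd1+ Havcr2+ cells with both chains in Control 11 fell into 13 clonotypes, and the largest held 26 cells (59.1%, exact interval 43.2 to 73.7). In IFNa 18 there were 15 clonotypes among 33 cells with 10 cells in the largest (30.3%), and in IFNa 23 there were 32 among 186 with 116 cells in the largest (62.4%, 55.0 to 69.3). The combination had 77 clonotypes among 574 cells, and its largest held 145 cells (25.3%, 21.8 to 29). Control 25 had 3 cells in 3 clonotypes. The leading receptors were TRAV13N-3 and TRAJ18 with TRBV5 and TRBJ2-7 in Control 11, TRAV7-4 and TRAJ24 with TRBV16 and TRBJ2-7 in IFNa 18, TRAV14D-1 and TRAJ22 with TRBV16 and TRBJ2-7 in IFNa 23, and TRAV6N-6 and TRAJ22 with TRBV13-3 and TRBJ2-1 in the combination. The second clonotype of the combination, TRAV6-6 and TRAJ9 with TRBV17 and TRBJ2-1, held 56 cells. Of the cells of the leading clonotypes of Control 11, IFNa 23 and the combination, 15 of the 26, 80 of the 116 and 108 of the 145 had a low load.

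Clonotypes were shared between the states within a liver. A state rests on whether a UMI was seen, so a cell whose Havcr2 or Pdcd1 went undetected counts in another state. How much of the sharing arose in this way was not tested. Of the clonotypes with a Pdcd1+ Havcr2+ cell, 6 of 13 in Control 11, 1 of 3 in Control 25, 8 of 15 in IFNa 18, 18 of 32 in IFNa 23 and 51 of 77 in the combination also had Pdcd1-only cells. As a share of all clonotypes among Pdcd1-only cells these were 26.1%, 25%, 42.1%, 34.6% and 30.7%. Overlap with negative cells was 1, 0, 1, 4 and 39 clonotypes, which is 0.694%, 0%, 0.568%, 3.33% and 10.3% of the clonotypes of negative cells. Pdcd1-only cells with a Tcf7 UMI shared 3 of 13, 0 of 3, 2 of 15, 11 of 32 and 44 of 77 clonotypes with the Pdcd1+ Havcr2+ cells. The largest clonotype of IFNa 23 held 25 Pdcd1-only and 9 negative cells beside its 116, and that of the combination 51 and 10 beside its 145.

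Several beta chains, matched by V, J and CDR3 translation, recurred across livers. A chain of TRBV10 and TRBJ2-3 did so in 32 gated cells of IFNa 23 and the combination, 17 of them Pdcd1+ Havcr2+. The recurrent chain with most cells is described here. It joins TRBV16 to TRBJ2-7 and was found in 308 gated cells, 185 of them Pdcd1+ Havcr2+, in 6 nucleotide versions of the CDR3, all of 45 bases. It is shown for the bases at which its versions differ. These are positions 18, 24 and 30 counted from the 5′ end, each the third base of its codon. All 6 translate to the same peptide, which follows from matching the chains by translation. The capitals mark those 3 positions.
version 1: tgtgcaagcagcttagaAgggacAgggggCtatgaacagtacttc
version 2: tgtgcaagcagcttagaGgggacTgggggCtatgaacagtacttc
version 3: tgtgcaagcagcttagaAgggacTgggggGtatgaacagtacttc
version 4: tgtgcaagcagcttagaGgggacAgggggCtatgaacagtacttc
version 5: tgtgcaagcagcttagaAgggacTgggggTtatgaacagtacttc
version 6: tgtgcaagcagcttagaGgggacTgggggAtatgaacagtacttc

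Version 1 was carried by 13 gated cells of IFNa 18 and 163 of IFNa 23, and version 2 by 75 cells of the combination. Version 3 was found in 3 livers, with 16 cells in IFNa 18, 4 in IFNa 23 and 9 in the combination. Versions 4 and 5 were found in IFNa 23, in 17 and 8 cells. Version 6 was found in 3 cells of Control 11, all Pdcd1-only. The beta chain was thus present in 15 of 34 Pdcd1+ Havcr2+ cells of IFNa 18 (44.1%), 135 of 192 of IFNa 23 (70.3%) and 35 of 620 of the combination (5.65%), with 12, 93 and 28 of them low-load. None of 46 and none of 4 cells in Control carried it, and a count of 0 of 46 allows a share of up to 6.52% (3 cells of 46), or 7.71% by the exact 95% interval. In negative cells its share was 0%, 0%, 0.457%, 5.88% and 1.64%. The chain was picked after the sequences were seen, so no test is given.

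The alpha chains paired with it were also alike. Among 296 cells with that beta chain and an alpha chain there were 13 clonotypes, of which 9 used TRAJ22, covering 269 cells and 168 Pdcd1+ Havcr2+ cells. One alpha CDR3, of TRAV7-4 and TRAJ22, occurred with identical bases in IFNa 18, IFNa 23 and the combination, in 85 cells (39 of them Pdcd1+ Havcr2+) and beside 4 of the 6 beta versions. It is printed with the alpha of the largest clonotype of IFNa 23, of TRAV14D-1 and TRAJ22, which pairs with version 1. No base is capitalised in either.
TRAV7-4 TRAJ22 alpha: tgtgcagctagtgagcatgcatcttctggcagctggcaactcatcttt
TRAV14D-1 TRAJ22 alpha: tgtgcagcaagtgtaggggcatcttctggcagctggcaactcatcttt

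TRAJ22 was used by 0 of 44 Pdcd1+ Havcr2+ cells in Control 11, 0 of 3 in Control 25, 12.1% in IFNa 18, 73.7% in IFNa 23 and 34.7% in the combination, against 8.33% to 15.2% of negative cells. By clonotype, so that a large clone counts once, TRAJ22 was in 0 of 13, 0 of 3, 2 of 15, 8 of 32 and 7 of 77 clonotypes of the Pdcd1+ Havcr2+ cells. TRBV16 was in 0 of 13, 0 of 3, 5 of 15, 7 of 32 and 7 of 77. Its share of clonotypes in negative cells was 6.94%, 0%, 8.52%, 7.50% and 7.11%. Only 1 paired clonotype was identical in bases for both chains in more than 1 liver, with 15 cells in IFNa 23 and the combination. Since cells of a clone share their source, the treatment comparisons below compare livers whose cells were 59.1%, 30.3%, 62.4% and 25.3% 1 clone, and clone and treatment cannot be told apart there.

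**Figure D3:**
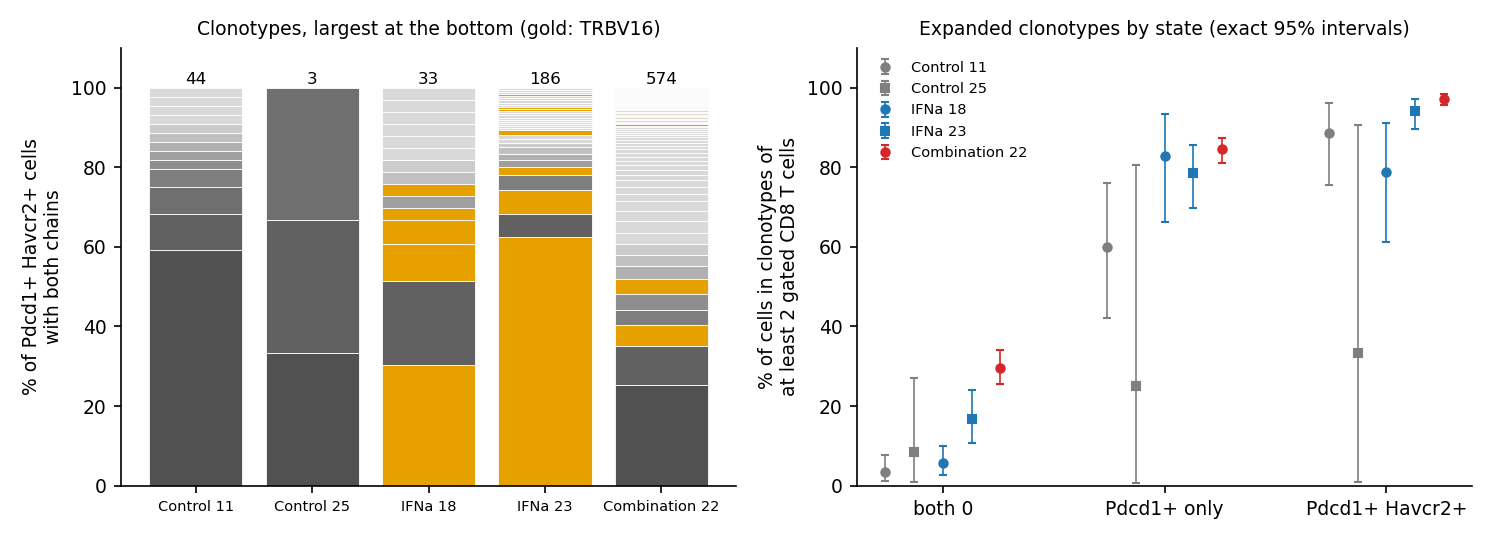
Left, clonotypes of Pdcd1+ Havcr2+ cells with both chains as stacked percentages of those cells per liver, largest at the bottom, TRBV16 clonotypes in gold, with the number of cells above each bar. Right, percentage of cells in expanded clonotypes by state for each liver with exact 95% intervals, in which negative cells (both 0) lie at 3.42% to 29.6% and Pdcd1+ Havcr2+ cells at 78.8% to 97.2% apart from Control 25.

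The cells were next compared with negative CD8 T cells of the same livers, with UMIs summed per liver and state and the liver as a block (4 livers). In edgeR's quasi-likelihood test with Benjamini-Hochberg adjustment, 4019 of 10305 genes passed 0.05 (39%), 2212 higher (21.5%) and 1807 lower (17.5%). Among low-load cells 2926 of 9508 passed (30.8%), with 1525 higher (16%) and 1401 lower (14.7%), and 2512 genes passed in both with the same direction. The 6 gate genes are left out of these counts, but the gate also favours deep cells. With every cell thinned to 3000 UMIs before the gate the count was 1110. Counts below are for low-load cells, with the value of all cells beside them where it differs in direction or call.

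Inhibitory receptors rose as a group, 12 of 15 tested, with 1 lower (Btla) and a median log2 difference of 2.32 against -0.02 over all genes. Lag3, the receptor of MHC class II, was at 576, 702, 928 and 723 CPM in Control 11, IFNa 18, IFNa 23 and the combination, and at 3.51, 15.2, 24.6 and 45.3 CPM in their negative cells. The log2 difference of Lag3 was 4.88 ± 0.31 (SE, adjusted p = 1.1e-06 in edgeR's quasi-likelihood test), and 4.16 ± 0.20 over all cells. Entpd1, which encodes the ectonucleotidase CD39, stood at 118, 155, 163 and 126 CPM against 10.5, 7.92, 24.6 and 16.3, a log2 difference of 3.03 ± 0.21. Of the transcription factors linked to exhaustion 17 of 20 rose and 2 fell (Runx3 and Eomes), with a median of 1.93. Tox, at 907, 715, 833 and 481 CPM, was 4.36-fold above negative cells, and Eomes was lower by 1.03 ± 0.18 on the log2 scale.

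Effector genes rose with them. Of cytotoxic genes 13 of 16 rose and Gzmm fell (median 1.58), and of cytokines and chemokines 12 of 14 rose and none fell (median 3.82). Ccl3, which encodes an inflammatory chemokine, was at 1743, 506, 2655 and 722 CPM against 24.8 to 68.6 in negative cells, 30-fold higher. It was at 89.8 CPM in the 3 low-load cells of Control 25, against 39.9. Prf1 was higher by 3.46 ± 0.22 on the log2 scale, Gzmb, which encodes granzyme B, by 2.89 ± 0.25 and Ifng, which encodes interferon gamma, by 3.93 ± 0.36. Tnfrsf9, which encodes the costimulatory receptor 4-1BB, was at 1317, 831, 1217 and 814 CPM against 9.65, 29, 30.8 and 71.2. Areg, which encodes the growth factor amphiregulin, had no UMI in any negative cell with a low load and stood at 7.89, 164, 66.5 and 18.7 CPM, carried by 1 of 25, 2 of 22, 9 of 135 and 15 of 455 cells.

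Genes of naive and memory T cells fell: 14 of 15 tested, with a median of -3.93, and Xcl1 alone rose. Tcf7 was at 0, 4.44, 7.82 and 19.3 CPM against 621, 625, 494 and 587 in negative cells. Dapl1, which had the steepest fall by the naming rule, was at 0, 0, 0 and 0.42 CPM against 175, 189, 107 and 106. Glycolysis and hypoxia genes rose in 19 of 20 (median 1.51), with Gapdh 3.17-fold higher, and 17 of 20 proliferation genes rose (median 1.21; 11 of 20 over all cells). Type I interferon genes went mostly the other way, with 24 of 47 lower and 7 higher (median -0.48), against 14.7% and 16% of all genes. Over all cells 16 of 49 were lower and 14 higher, against 17.5% and 21.5% of all genes. Low-load cells also differ in depth and number, and what moved the balance was not tested.

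Against Pdcd1-only cells of the same livers the difference was smaller. Over all cells 901 of 9626 genes passed 0.05 in edgeR's quasi-likelihood test with Benjamini-Hochberg adjustment (9.36%), 675 higher (7.01%) and 226 lower (2.35%). The 10 largest rises by the naming rule included C1qa, C1qb, C1qc, Ms4a7, Cxcl2, Trem2, Ccl2, Tifab and Apoe, most of them macrophage genes. None of the 10 was tested among low-load cells, where their counts were too low for the filter. C1qa, C1qb, C1qc, Ms4a7 and Apoe are among the 45 genes of the load. Their low levels in low-load cells thus follow from the way those cells were chosen. C1qb, a complement component made by macrophages, was at 145 to 869 CPM in the 5 livers over all cells and at 0 to 2.10 CPM in low-load cells. Among low-load cells 391 of 8131 genes passed (4.81%), with 223 higher (2.74%) and 168 lower (2.07%), and 245 passed in both with the same direction. After thinning to 3000 UMIs 141 passed. Leaving out 1 liver at a time gave 116 to 500 genes in low-load cells, the fewest without the combination and 149 without IFNa 23.

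Some cytotoxic and chemokine genes rose at this step and others fell. Prf1 was at 647, 875, 1011 and 469.9 CPM in low-load Pdcd1+ Havcr2+ cells of Control 11, IFNa 18, IFNa 23 and the combination, against 156, 282, 129 and 110.3 in Pdcd1-only cells. It was higher in 4 of 4 livers, with a log2 difference of 2.22 ± 0.18 (adjusted p = 2.43e-07, edgeR's quasi-likelihood test). In Control 25 it was at 179.6 CPM against 0. Ccl3 was higher by 2.40 ± 0.34, Ccl4 by 1.77 ± 0.27 and Ifng by 1.70 ± 0.22. Gzmb was higher by 1.30 ± 0.28 in the fit, but in Control 11 its level was 564 CPM against 646, and its adjusted p was 0.157 without IFNa 23. In all, 5 of 14 cytokine and chemokine genes rose (Csf1, Ifng, Ccl1, Ccl3 and Ccl4) and 3 fell (Xcl1, Tnf and Tnfsf14), with a median of 0.68. Of 15 cytotoxic genes 4 rose (Cst7, Nkg7, Prf1 and Gzmb) and Ctsw fell (median 0.38). The median over all genes tested was -0.01.

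Inhibitory receptors rose in 7 of 14 (Ctla4, Cd244a, Cd38, Lag3, Lilrb4a, Cd200r1 and Entpd1) and fell in none, with a median of 0.40. Entpd1 was at 118, 155, 163 and 126 CPM against 75.8, 82.3, 49.5 and 38, 2.77-fold higher in the fit. Cd244a, which encodes the receptor 2B4, was 2.45-fold higher. Lag3 was 1.55-fold higher in low-load cells (adjusted p = 0.00672, edgeR's quasi-likelihood test) and did not pass over all cells, where its log2 difference was 0.23 ± 0.15. Tigit, an inhibitory receptor for CD155, did not pass in either set, with 0.25 ± 0.15 and -0.22 ± 0.20.

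Transcription factors rose in 4 of 20 (Nr4a2, Bhlhe40, Prdm1 and Id2). Prdm1, which encodes BLIMP-1, was higher by 1.36 ± 0.23 and Id2 by 0.81 ± 0.13. Prdm1 lost its call without the combination (adjusted p = 0.160) and without IFNa 23 (0.0624), and its level in Control 11 was 43.4 CPM against 43.9. Tox was at 907, 715, 833 and 481 CPM against 742, 533, 621 and 369.8, higher in each of the 4 livers, with a log2 difference of 0.37 ± 0.12 that did not pass (adjusted p = 0.0909, edgeR's quasi-likelihood test).

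Precursor genes were lower in the Pdcd1+ Havcr2+ cells than in Pdcd1-only cells. Of 14 genes of the stem and memory list 11 fell and none rose, with a median of -1.46. Tcf7 was at 0, 4.44, 7.82 and 19.3 CPM against 112, 69.3, 112 and 212 in Pdcd1-only cells, 12.4-fold lower in the fit (log2 -3.63 ± 0.22, adjusted p = 2.45e-09 in edgeR's quasi-likelihood test). Slamf6, a surface marker of precursor cells, was 4.68-fold lower and S1pr1, the receptor for exit from tissue, 6.60-fold lower. Ccr7, the chemokine receptor for lymph nodes, was 8.60-fold lower among low-load cells and 2.36-fold over all cells,. Aff3, Ccr6 and Penk, the last encoding proenkephalin, also fell, and Xcl1, a chemokine for cross-presenting dendritic cells, was lower by 0.97 ± 0.19. Xcl1 lost its call without the combination (adjusted p = 0.0552) or IFNa 23 (0.112).

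Cell cycle and interferon genes differed between the low-load cells and all cells, and the cause was not tested. Mki67, a marker of cycling cells, was higher than in Pdcd1-only cells by 0.67 ± 0.18 among low-load cells and not called over all cells, at -0.27 ± 0.23. Of 20 proliferation genes 5 rose in low-load cells (Mcm2, Mcm3, Mcm5, Mki67 and Cdk1), against 2.74% of all genes. Over all cells 2 rose, which is near the 7.01% of all genes called higher there. After thinning to 3000 UMIs a Mki67 UMI was found in 12%, 15%, 15.9% and 18.7% of low-load Pdcd1+ Havcr2+ cells and 8.11%, 17.9%, 10.1% and 9.39% of Pdcd1-only cells. Type I interferon genes were lower in 11 of 47 and higher in none among low-load cells (median -0.26), against 2.07% and 2.74% of all genes. Over all cells 8 of 49 were higher and 2 lower, against 7.01% and 2.35% of all genes. Irf7, the regulator of the interferon response, was lower by 0.63 ± 0.14 among low-load cells and stood at 0.18 ± 0.15 over all cells.

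**Figure D4:**
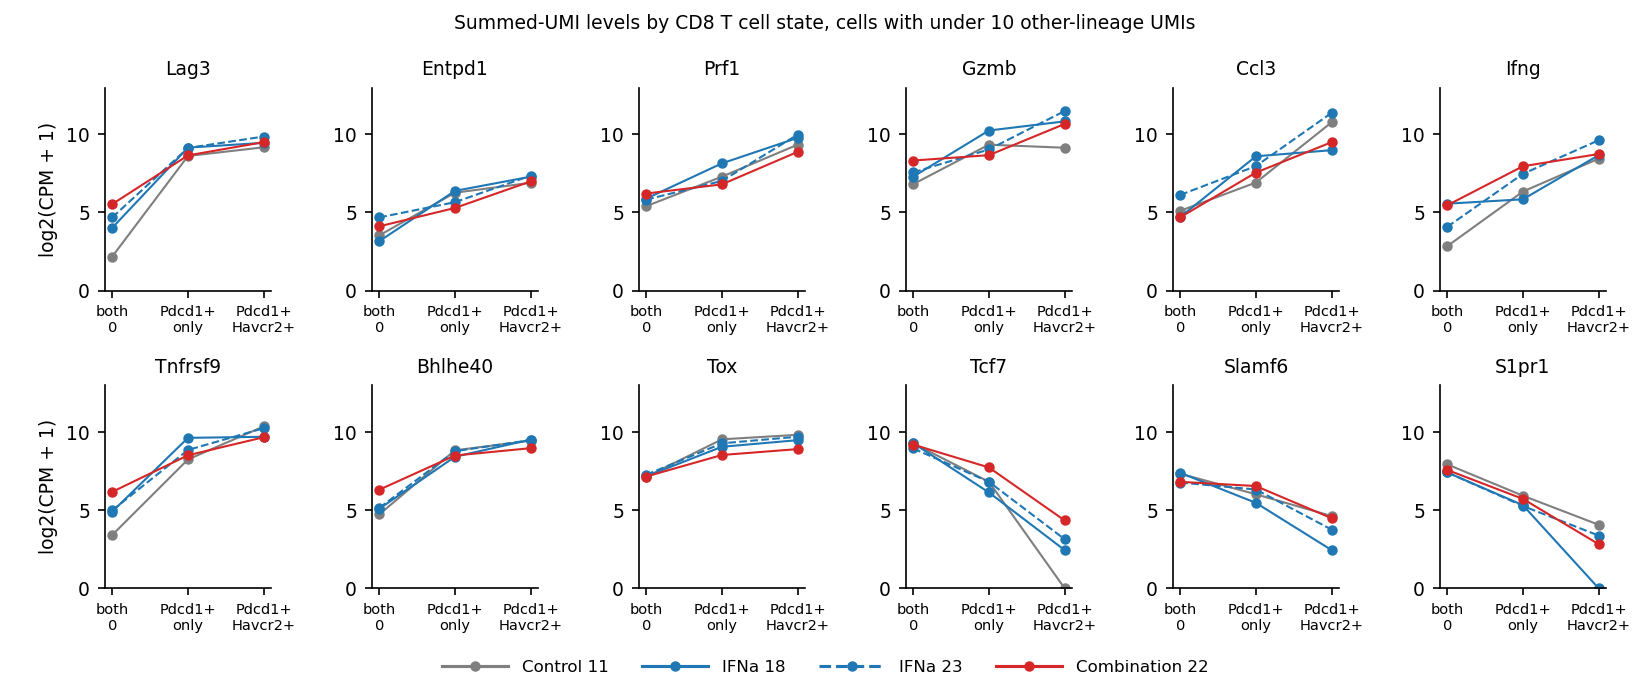
log2(CPM + 1) of 12 genes (vertical axes) in low-load negative, Pdcd1-only and Pdcd1+ Havcr2+ cells (horizontal axes) of the 4 livers with enough cells, 1 line a liver (IFNa 23 dashed). Lag3, Prf1, Ccl3 and Tnfrsf9 climb across the 3 states, Tox is close in Pdcd1-only and Pdcd1+ Havcr2+ cells, and Tcf7, Slamf6 and S1pr1 descend in all 4 livers.

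The treatment comparison asks how IFNa alone, or with CTLA-4 blockade, altered these cells. Its fit held 1 Control, 2 IFNa and 1 combination library, so the spread came from the 2 IFNa libraries alone and the single Control and combination libraries are assumed to vary like them. The first 2 contrasts share Control 11. In edgeR's quasi-likelihood test 169 of 10920 genes passed 0.05 for IFNa minus Control (1.55%), 68 higher (0.623%) and 101 lower (0.925%). For the combination minus Control 289 passed (2.65%), 113 higher (1.03%) and 176 lower (1.61%), and for the combination minus IFNa 100 (0.916%), 59 higher (0.540%) and 41 lower (0.375%). With the 4 cells of Control 25 entered the counts were 2, 40 and 20. Among low-load cells 77 of 8881 genes (0.867%), 49 (0.552%) and 92 (1.04%) passed, of which 37, 39 and 54 passed over all cells in the same direction. T cell receptor and immunoglobulin segments together made up 10, 32 and 35 of the 169, 289 and 100 genes. The receptor segments follow the clones, while immunoglobulin segments are genes of B cells and plasma cells. They were not counted apart.

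Genes named by size over all cells included many that belong to other cells. The largest falls against Control were haemoglobin genes, chemokines and claudins (Hba-a1, Hba-a2, Hbb-bs, Hbb-bt, Cxcl1, Cldn4). Hba-a1 was at 1202 CPM in Control 11 and 0 to 2.15 CPM in the other 4 livers, and 1 cell gave 99.2% of its UMIs there. Mzb1, a plasma cell gene, was at 79.5 CPM in the combination over all cells and at 1.26 CPM in its low-load cells. Such genes are not described as changes of the CD8 T cells.

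Type I interferon genes were higher in both treatments. Among low-load cells 19 of 46 tested were called higher for IFNa minus Control against 0.529% of all genes, with none lower and a median log2 difference of 1.83 against 0.04 for all genes. For the combination 15 of 46 were called higher against 0.360% of all genes (median 1.85), and in edgeR's test none was called between the combination and IFNa (median -0.04), where 4 of 46 had an unadjusted p under 0.05. Over all cells the first 2 counts were 25 and 26 of 49, or 11 and 8 with DESeq2, and the third was 0 of 49 with either tool. All 46 list genes had a difference above 0 in each of the first 2 contrasts. The list was one that the earlier work on these samples had already shown to rise, and its count is not independent evidence of direction.

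Ifi27l2a, an interferon-induced mitochondrial protein gene, was at 1269.9 and 1904 CPM in the low-load cells of both Control livers, against 5054 (IFNa 18), 6707 (IFNa 23) and 5766 CPM (combination). The Control libraries lay below the 3 others, and the IFNa minus Control difference was 2.23 ± 0.20 on the log2 scale (adjusted p = 3.94e-11, edgeR's quasi-likelihood test). It was 1 of the 2 genes that passed with Control 25 entered (2.09, adjusted p = 0.022 in edgeR's quasi-likelihood test), the other being the receptor segment Trbv16.

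Isg15, a ubiquitin-like modifier, stood at 51.3, 89.8, 382, 379 and 360.2 CPM in the same order. Its difference was 2.91 ± 0.41 for IFNa and 2.83 ± 0.42 for the combination. With Control 25 entered the IFNa difference over all cells was 2.38 with an adjusted p of 0.0589 in edgeR's quasi-likelihood test. Irf7 was at 63.1, 18, 239.8, 262 and 228 CPM, Usp18, which restrains interferon receptor signalling, at 31.6, 0, 182, 161 and 183 CPM, and Ly6a, which encodes Sca-1, at 434, 413, 1159, 1613 and 1542 CPM. In each of these genes both Control libraries lay below all 3 treated libraries, as for Ifi27l2a. How many of all genes show this order was not counted. Control 25 holds 3 low-load cells, with 5 UMIs of Isg15, 1 of Irf7 and 0 of Usp18.

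Negative cells of the same livers showed the list too: Isg15 was at 57.0, 20, 322, 438 and 426 CPM in them and Ifi27l2a at 502, 575, 2556 and 3127 CPM in Control 11, Control 25, IFNa 18 and IFNa 23. Whether the IFNa effect differed between Pdcd1+ Havcr2+ and negative cells was tested as an interaction, and in edgeR's test none of 49 interferon genes passed over all cells or of 47 among low-load cells (medians -0.13 and 0.16), with 8 and 5 of them at an unadjusted p under 0.05. The interaction fit had 1 residual degree of freedom, and its counts over all genes are given under the results flagged for a closer look. In simulated counts over all cells the IFNa interaction recovered 10.8% of genes with a true log2 difference of 1. A difference of that size between the states can thus go uncalled.

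Interferon-responsive genes often carry a sequence that binds the factors ISGF3 and IRF near their start. The letters GAAANNGAAA, searched on both strands from 250 bases before to 50 after each start in RefSeq promoters of GRCm38.p6, occurred in 1131 of 32851 promoters (3.44%). Of the 50 genes of the list 39 had a promoter in that table, and 21 held the letters. Of the 19 genes called higher for IFNa among low-load cells 14 had a promoter and 9 held the letters (64.3%). Irf7 had a promoter there without a match. The promoters of Isg15 and Bst2, which encodes tetherin, are shown because both genes rose and hold more than 1 overlapping match, in capitals: Isg15 on the minus strand at chr4:156200769-156201068 with 3 matches, and Bst2 on the minus strand at chr8:71537423-71537722 with 2. A match is a description of the letters and not of binding.
Isg15 promoter: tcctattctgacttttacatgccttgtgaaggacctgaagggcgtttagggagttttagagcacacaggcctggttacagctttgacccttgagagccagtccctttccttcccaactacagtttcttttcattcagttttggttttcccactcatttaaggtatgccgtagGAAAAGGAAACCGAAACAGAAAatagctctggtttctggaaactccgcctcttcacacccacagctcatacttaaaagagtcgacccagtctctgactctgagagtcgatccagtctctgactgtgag
Bst2 promoter: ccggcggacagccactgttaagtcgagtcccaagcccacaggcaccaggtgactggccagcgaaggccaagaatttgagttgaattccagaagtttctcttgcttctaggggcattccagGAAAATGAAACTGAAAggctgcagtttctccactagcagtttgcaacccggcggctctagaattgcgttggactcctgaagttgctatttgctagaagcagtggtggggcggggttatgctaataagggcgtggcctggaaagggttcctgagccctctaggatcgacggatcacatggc

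Bst2 was at 146 and 179.6 CPM in the low-load cells of both Control livers, against 382 (IFNa 18), 451 (IFNa 23) and 419 CPM (combination). Its difference for IFNa was 1.55 ± 0.34 on the log2 scale (adjusted p = 0.00845, edgeR's quasi-likelihood test), and with Control 25 entered it was 1.22 over all cells and did not pass. Ifitm1, an interferon-induced membrane protein gene that is not on the list, went the other way. Its level was 548 CPM in Control 11, 144 in Control 25, 35.5 in IFNa 18, 83.7 in IFNa 23 and 291 in the combination. In Control 11 a single cell gave 89.9% of its UMIs.

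Of 15 cytotoxic genes 2 were called higher for IFNa among low-load cells (Gzmb and Gzmc, median 0.10) and 1 for the combination (Gzmb, median -0.08). Gzmb was at 564 and 503 CPM in low-load cells of both Control livers, against 1821 (IFNa 18), 2877 (IFNa 23) and 1623 CPM (combination). The difference was 2.09 ± 0.26 for IFNa and 1.54 ± 0.28 for the combination in low-load cells. Over all cells the latter was 0.90 ± 0.30 and did not pass, and with Control 25 entered neither did (adjusted p = 0.29 and 0.60 in edgeR's quasi-likelihood test). Gzmb UMIs were present in 15 of 22, 107 of 135 and 321 of 455 low-load cells of IFNa 18, IFNa 23 and the combination, and in 18 of 25 of Control 11. In IFNa 18 a single cell gave 43.9% of them. Prf1 was at 647 and 179.6 CPM in the Control livers, 875 and 1011 in the IFNa livers and 469.9 in the combination, which lay between the Control livers. For IFNa it passed over all cells (1.08 ± 0.21) and not among low-load cells (0.57 ± 0.26). Inhibitory receptors did not pass for IFNa minus Control in either set: in edgeR's test 0 of 14 were called among low-load cells (median 0.33) and 0 of 16 over all cells, with 1 and 3 at an unadjusted p under 0.05, and DESeq2 called 0 of 16. Lag3 gave 0.54 ± 0.27 there, and Tox was at 907, 413, 715, 833 and 481 CPM. In simulated counts the IFNa minus Control fit over all cells recovered 29.8% of genes with a true log2 difference of 1. A change of that size can thus go uncalled.

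Several chemokine and cytokine differences rested on few cells. Xcl1 was called higher for IFNa (1.85 ± 0.31), at 319 and 0 CPM in Control and 1435 and 868 CPM in IFNa, but 1 cell of 22 gave 67.8% of its UMIs in IFNa 18. Areg was at 7.89 and 0 CPM in Control and 164 and 66.5 in IFNa, with 97.3% of the UMIs of IFNa 18 in 1 cell. Ncr1, an activating receptor of natural killer cells, had no UMI in Control and was found in 1 of 22 cells of IFNa 18 and 5 of 135 of IFNa 23. The 7 natural killer cell markers summed to 181 and 198 CPM in low-load cells of Control and 537, 430.3 and 266 CPM in IFNa 18, IFNa 23 and the combination. Csf2, called lower in the combination, had all its UMIs of Control 11 in 1 of 25 low-load cells. Their part in the group differences was not tested.

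**Figure D5:**
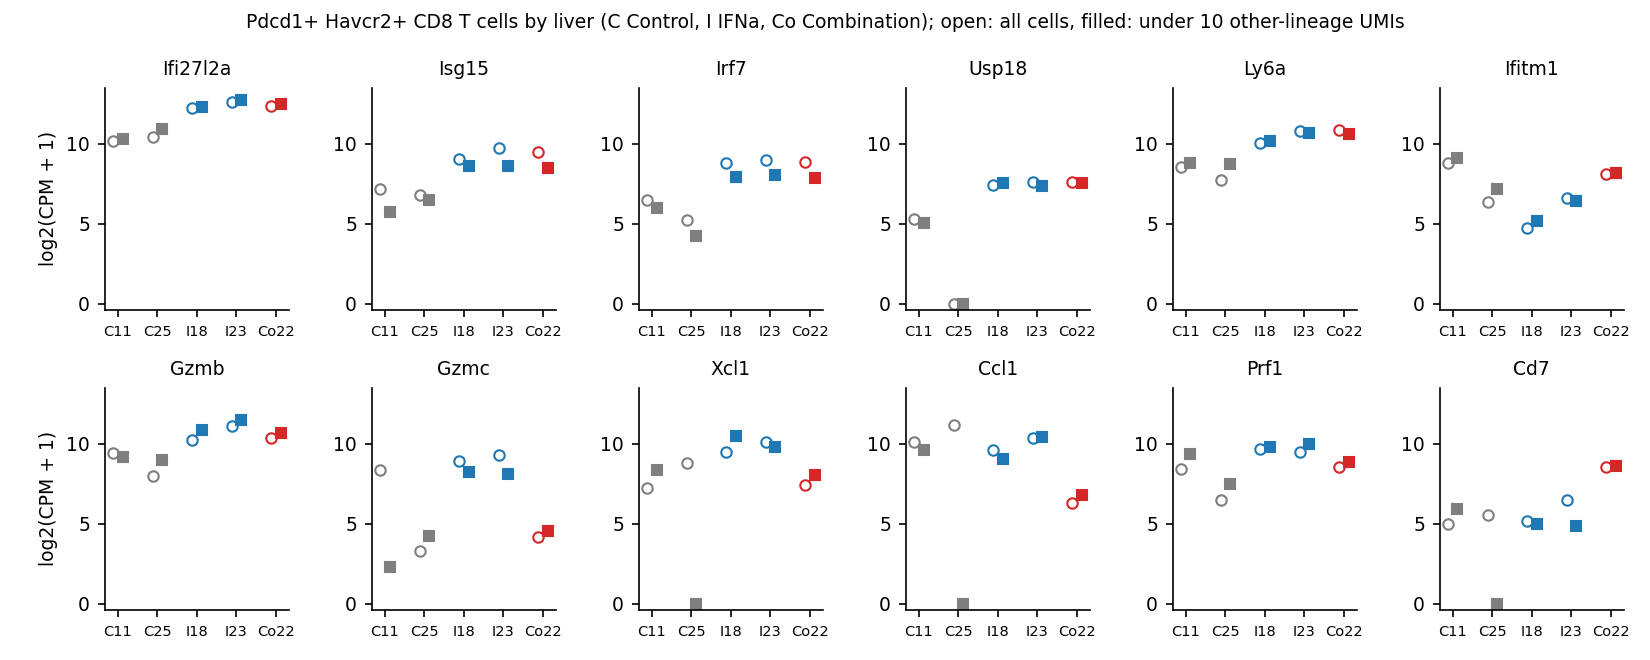
log2(CPM + 1) of 12 genes (vertical axes) in Pdcd1+ Havcr2+ cells of each liver (C Control, I IFNa, Co combination), open circles for all cells and filled squares for low-load cells. Ifi27l2a, Isg15, Irf7, Usp18 and Ly6a are lower in both Control livers than in the 3 treated livers, and Cd7 is highest in the combination.

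The combination liver differed from the IFNa livers in other genes. Cd7, a costimulatory receptor of T and natural killer cells, was at 387 CPM in its low-load cells against 31.1 and 27.4 CPM in IFNa 18 and 23 and 59.2 and 0 CPM in Control. It was found in 125 of 455 cells there against 2 of 22 and 12 of 135, and no single cell of that liver gave more than 6.90% of its UMIs. The difference from IFNa was 3.77 ± 0.33 on the log2 scale (adjusted p = 7.62e-11, edgeR's quasi-likelihood test), with an adjusted p of 0.060 over all cells once Control 25 was entered and of 1.00 with DESeq2. Ctla4, which encodes the receptor that the antibody blocks, was at 811 CPM against 253 and 437 in IFNa and 383 and 647 in Control, 2.26-fold above IFNa in the fit (adjusted p = 0.0129, edgeR's quasi-likelihood test).

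Of 14 genes on the cytokine and chemokine list 6 were lower in the combination than in IFNa among low-load cells, against 0.473% of all genes (Xcl1, Csf1, Areg, Spp1, Csf2 and Ccl1), and only Xcl1 and Ccl1 of these are chemokines. In IFNa 18 a single cell gave 97.4% of the Csf2 UMIs, 97.3% of Areg, 75% of Csf1, 67.8% of Xcl1 and 60.2% of Ccl1, and in IFNa 23 a single cell gave 41.9% of Xcl1. Ccl3 and Ccl4 did not pass, and in the combination, at 722 and 3431 CPM, they lay between IFNa 18 (506 and 1395) and IFNa 23 (2655 and 7597). Ccl1, a ligand of CCR8, was at 112 CPM against 524 and 1380.0 in IFNa and 761 and 0 in Control. In Control 11 a single cell gave 63.7% of its UMIs. Ccl1 was lower in the combination by 3.13 ± 0.36 than in IFNa. It was also 1 of the genes that passed against IFNa with Control 25 entered (adjusted p = 0.029, edgeR's quasi-likelihood test). That fit was over all cells, and 1 cell that was not low-load gave all 256 Ccl1 UMIs of Control 25 there. Prf1, at 469.9 CPM against 875 and 1011 in low-load cells, was 2.02-fold lower. Gzmc was at 22.1 CPM against 298 and 278, with 76.1% and 61.4% of the UMIs of IFNa 18 and 23 in 1 cell each. Gzmk, the granzyme of less differentiated cells, was at 210.3 CPM against 17.8 and 104, 2.69-fold higher, and at 225 CPM in Control 11 and 35.9 in Control 25, so the combination lay between the Control livers.

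Proliferation genes were higher in the combination than in IFNa in 4 of 20 (Stmn1, Pclaf, Ccnb2 and Rrm2, median 0.62) against 0.563% of all genes. Pclaf, a replication clamp factor, was at 204 CPM against 75.5 and 45.4 in IFNa and 114 and 53.9 in Control. Mki67 was at 213 CPM against 79.9 and 169 in IFNa and 142 and 1473 in Control, and 1 cell gave all its UMIs in Control 25. Lef1, a precursor transcription factor, was at 39.3 CPM against 13.3 and 11 in IFNa and 23.7 and 108 in Control. Itgb7, the gut-homing integrin chain, was at 233 CPM against 57.7 and 81.4 in IFNa and 86.8 and 305 in Control. In both genes the 3 cells of Control 25 lay above the combination. With 1 combination liver, treatment, liver and its leading clonotypes cannot be told apart.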

How the data were processed

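Gene expression and T cell receptor libraries came from the same 5 livers (10 libraries). The authors deposited UMI counts per gene and barcode and, for receptors, contig tables with UMI and read counts per contig. Cell Ranger 7.0.1 and mm10 are given per the submitters' processing notes. Nothing was renormalised before use. No doublet caller was run. Removing possible doublets (at least 2 productive beta contigs, or at least 2 UMIs of macrophage, B cell, neutrophil or hepatocyte markers) and keeping low-load cells were alternatives, the latter chosen after the data were seen.

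UMIs were summed per liver and state and tested with edgeR 4.0.16 (TMM scaling, quasi-likelihood test, Benjamini-Hochberg adjustment, threshold 0.05) in R 4.3.3. Libraries with under 5 cells of a state stayed out of the fit. Comparisons of states used the liver as a replicate block, since the states come from the same liver. CPM are UMIs per 1000000 UMIs of the summed cells. Interaction fits compared the treatment effect in Pdcd1+ Havcr2+ cells with that in negative cells. DESeq2 1.42.0, no filter on low counts, thinning to 3000 UMIs and leaving out livers were tried as well. The tests were tried on simulated counts over all cells. A true log2 difference of 1 was recovered in 29.8% of changed genes for IFNa minus Control. It was recovered in 10.8% for the IFNa interaction and in 100% for both comparisons of states. For a difference of 2 the shares were 100%, 93.5% and 100%. Shares have exact Clopper-Pearson 95% intervals and single values exact permutation tests (scipy 1.17.1).

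Genes were named by these rules: the 6 markers, up to 4 genes a list with the highest mean CPM, and up to 10 genes each way by fold among those past 0.05, at 20 CPM or more in the higher group, with every library on the same side. Gate genes, receptor and immunoglobulin segments, mitochondrial and ribosomal genes were left out. Usp18, Csf2 and others outside them were named after their values were seen. Areg, Ncr1 and Ccr6 met the rules in at least 1 comparison each. Ifitm1 met them for the combination against IFNa, not for IFNa against Control. The cells, gene lists and alternatives were chosen with earlier results of these data known. Some genes are not reported here.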

Additional observations from a re-analysis of the deposited data

Results flagged for a closer look

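Whether the treatment effect differed between Pdcd1+ Havcr2+ and negative cells of the same livers was tested as an interaction in edgeR's quasi-likelihood fit with Benjamini-Hochberg adjustment. For IFNa against Control 16 of 11052 genes passed (0.145%), and 31 among low-load cells (0.302%). For the combination against Control 34 passed (0.308%), and 69 among low-load cells (0.673%). Both interactions use Control 11 alone as the control and share it, and the combination is a single liver. With 1 residual degree of freedom the spread came from the 2 IFNa livers alone, so a difference between the Control 11 and combination livers cannot be told apart from one between treatments.

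Cd7 had an interaction of 3.73 ± 0.51 on the log2 scale for the combination over all cells and 2.90 among low-load cells. Over all cells its levels in Pdcd1+ Havcr2+ cells were 31.2 CPM in Control 11 and 363 CPM in the combination, against 224 and 204 CPM in negative cells. Set against Pdcd1-only cells instead, the interaction of Cd7 was 2.63.

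Tnfrsf9 had an interaction of -3.04 ± 0.41, Rgs16, a regulator of G protein signalling, of -3.26 ± 0.55 and Satb1, a chromatin organiser of T cells, of 2.36 ± 0.40. Tnfrsf9 in negative cells was over all cells at 9.41 CPM in Control 11 and 71.2 CPM in the combination, and Rgs16 at 3.92 and 57.5 CPM. Negative cells of Control 11 summed to 1274937 UMIs, so both of its levels rest on few UMIs. In Pdcd1+ Havcr2+ cells, again over all cells, Tnfrsf9 was at 745 and 653 CPM and Rgs16 at 374 and 542 CPM. Satb1 was at 567 and 501 CPM in negative cells and at 22.4 and 97.4 CPM in Pdcd1+ Havcr2+ cells. Set against Pdcd1-only cells, the interactions of Tnfrsf9 (-0.73), Rgs16 (-0.23) and Satb1 (0.41) did not pass.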

How the results depend on the processing

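With 5 livers, 1 of them with 4 Pdcd1+ Havcr2+ cells, the counts of called genes moved with most settings. Treatment counts of 169, 289 and 100 genes (IFNa minus Control, combination minus Control, combination minus IFNa) became 48, 66 and 27 with DESeq2, 27, 29 and 34 without possible doublets, 332, 471 and 225 without a filter and 2, 40 and 20 with Control 25. Low-load cells gave 77 and 49 for the first 2. Fitting Control and IFNa only gave 80. Leaving out 1 liver with Control 25 entered gave, for IFNa minus Control, 111 genes without Control 11, 99 without IFNa 18, 59 without IFNa 23 and, in edgeR's test, 0 without the combination (422 at an unadjusted p under 0.05). For combination minus Control it gave 102, 143 and 139, and for combination minus IFNa 94, 44 and 61, without Control 11, IFNa 18 and IFNa 23. With Control 25 left out as well, IFNa minus Control gave 80 (without the combination) and combination minus IFNa 122 (without Control 11). Against Pdcd1-only cells, 901 became 391 in low-load cells, 1403 without a filter, 109 without possible doublets, 141 thinned and 493 with no replicate block, and 490 to 975 with 1 liver left out (low-load cells: 323, 500, 149 and 116 without Control 11, IFNa 18, IFNa 23 and the combination). Against negative cells, 4019 became 1822 without possible doublets, 1110 thinned and 3584 with no replicate block, 3049 to 3574 with 1 liver left out (low-load cells in the same order: 2493, 2526, 2056 and 2020). Interaction counts of 16 and 34 became 31 and 69 in low-load cells and 132 and 114 against Pdcd1-only cells. The share difference was -3.07 to 24.1 percentage points with 1 liver left out, and expanded shares differed by 60.8 to 75.9 (negative) and 8.16 to 16.3 points (Pdcd1-only).

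Reversed directions were Ccl3 for IFNa minus Control (3.78 without Control 11, Control 25 entered), Mki67 for combination minus Control with Control 25 entered (-0.93, -1.02, -1.06 and -2.02), Irf7 against Pdcd1-only cells (-0.70 without possible doublets, -0.63 in low-load cells and -0.58, -0.62 and -0.73 there with 1 liver left out) and Mki67 against Pdcd1-only cells (0.67 in low-load cells, 0.74 and 0.76 there with 1 liver left out). The cause was not tested. Of the other gene values across alternatives 949 kept their side of the threshold, 187 lost the call and 26 gained it. Directions that changed without a call in either setting are not listed above and are counted among the 949.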

Other observations

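Gated CD8 T cells with Havcr2 but no Pdcd1 UMI numbered 114, and were 3.14% of gated cells in the combination. Their other-lineage load was higher than that of Pdcd1+ Havcr2+ cells in count: 4 of 12, 0 of 1, 1 of 14, 11 of 29 and 34 of 58 cells had a load under 10 in Control 11, Control 25, IFNa 18, IFNa 23 and the combination. One paired receptor, TRAV13-4-DV7 with TRBV13-3, had the same bases for both chains in 14 cells of the combination and 1 cell of IFNa 23, and 6 of these 15 cells were Pdcd1+ Havcr2+. Of clonotypes with a Pdcd1+ Havcr2+ cell in the combination, those that also had negative cells held 88.3% of its Pdcd1+ Havcr2+ cells with both chains. The shares were 6.82% in Control 11, 0% in Control 25, 3.03% in IFNa 18 and 64.5% in IFNa 23. In IFNa 23 the largest clonotype, which had 9 negative cells, held 116 of the 186. These shares are not compared between livers. Negative cells with both chains numbered 459 in the combination and 24 to 179 in the others.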
